A study of Citrus unshiu with 6 samples.

Results

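Of the 23099 genes measured in Satsuma mandarin peel, 100 had an FPKM at least 2-fold lower in peel with roughing disorder (RD) than in control peel (CK) at each of 3 stages. FPKM is a count of sequenced fragments scaled for transcript length and for the mapped fragments of the library. A gene was taken as a member when the ratio of RD to CK was at most 0.5 in peel collected 30, 80 and 170 days past full bloom (DAFB) and the higher library of each stage had an FPKM of at least 1. All 100 members passed that minimum by the rule, and 15863 genes passed it at all stages. The ratios chose the members, so they are a description and support nothing further.

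Both peels came from “Yamashitabeni wase” Satsuma mandarin on trifoliate orange rootstock. In RD30, RD80 and RD170 the disorder had been induced by thinning trees at fruit set to a few upward fruits, and in CK30, CK80 and CK170 the trees had kept their fruit. Effects of tree, fruit load and possibly fruit position therefore cannot be told apart from those of roughing. A library was made from 1 pool of 3 peel samples for each condition, 6 in all. No replicate check of the FPKM was therefore possible, and neither an SD between replicates nor a p is given.

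Citrus peel is the outer wall of the fruit and meets wounds, insects, cold and microbes first, and some of the named members belong to routes by which plants answer such stress. One such route makes jasmonate, a hormone formed in part in the plastid: desaturases supply linolenic acid, lipases release it from membrane lipids, and 13-lipoxygenases oxidise it. In Arabidopsis, TIFY (JAZ) proteins hold back the jasmonate regulator MYC2 and are themselves switched on by the hormone. Reactive oxygen from respiratory burst oxidases, calcium entering through glutamate receptor-like channels, WRKY factors and U-box ubiquitin ligases take part in the same kinds of response.

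The deposited FPKM carry no read numbers per gene, so the reads behind a single value are unknown and low values are the least certain. By the study's read totals, all libraries were sequenced to a similar depth. Total FPKM lay between 587201 and 628627 per library. Genes at least 2-fold lower in RD peel were 1104 of 17419 at 30 DAFB (6.34%), 845 of 17402 at 80 DAFB (4.86%) and 1726 of 17143 at 170 DAFB (10.1%). The members, lower at all stages, were 0.630% of the 15863 genes, and nothing is read from these shares because the rule used the same values. They made up 9.06% of the genes lower at 30 DAFB, 11.8% at 80 DAFB and 5.79% at 170 DAFB. Genes at least 2-fold higher in RD peel were 25.6% of those tested at 30 DAFB, 5.20% at 80 DAFB and 8.14% at 170 DAFB. The counts of gene lists given below are to be set beside these shares of lower and higher genes. Among lists for other tissues and for handling, 19 of 38 expressed heat shock genes were at least 2-fold higher and 4 lower in RD30, and their summed FPKM was 9756 in RD30 and 2778 in CK30. The summed heat shock FPKM was 2308 in RD80 and 3643 in CK80, and 6676 in RD170 and 3601 in CK170. A single heat shock gene (Cs4g05780) had 5163 of the sum in RD30 and 524 in CK30. Another (Cs8g18260) went the other way, with 312 in RD30 and 915 in CK30. Genes of the light reactions of photosynthesis, which mark green peel, summed to 13775 in RD30 and 6337 in CK30, to 16191 in RD80 and 17881 in CK80, and to 1770 in RD170 and 372 in CK170. Of these 18 genes, all were above 0 in RD30 and RD80 and 17 in the other libraries. A single one, the chlorophyll a-b binding protein gene Cs2g03780, had 8291 of the sum in RD30 and 4395 in CK30. Of 10 seed genes, 6 to 9 were above 0 in RD libraries and 7 to 9 in CK libraries, and apart from the late embryogenesis abundant protein Lea5 (Cs9g04210), which is not restricted to seed, they summed to 17.5 to 30.7 in RD peel and 12.5 to 33.7 in CK peel. The 13 phloem and xylem genes summed to 49.1 to 94 in RD peel and 114 to 177 in CK peel, and the 42 terpene genes of oil glands to 1285 to 1915 in RD peel and 1386 to 1928 in CK peel. None of these 5 lists held a member, and their part in the lower values of the members was not tested. In whole peel, fewer cells of a type and less RNA per cell cannot be told apart.

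Together the members held 0.385% of all FPKM in RD30 and 1.63% in CK30, 0.279% in RD80 and 0.846% in CK80, and 0.201% in RD170 and 0.724% in CK170. Their median FPKM was 11.7 in RD30 and 43.4 in CK30, 7.57 in RD80 and 30.5 in CK80, and 4.8 in RD170 and 17.3 in CK170. Both peels thus had their highest median level of these genes at 30 DAFB. In the best CK library 31 members reached an FPKM of 100, 60 lay between 10 and 100, and 9 stayed below 10. The median log2 ratio of RD to CK over members above 0 in both libraries was -1.79 at 30 DAFB (n = 98), -1.55 at 80 DAFB (n = 100) and -1.73 at 170 DAFB (n = 99). Over all genes expressed at each stage it was 0.48, 0.10 and -0.11. RD30 was therefore higher than CK30 for the typical gene while the members were lower there.

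**Figure D1:**
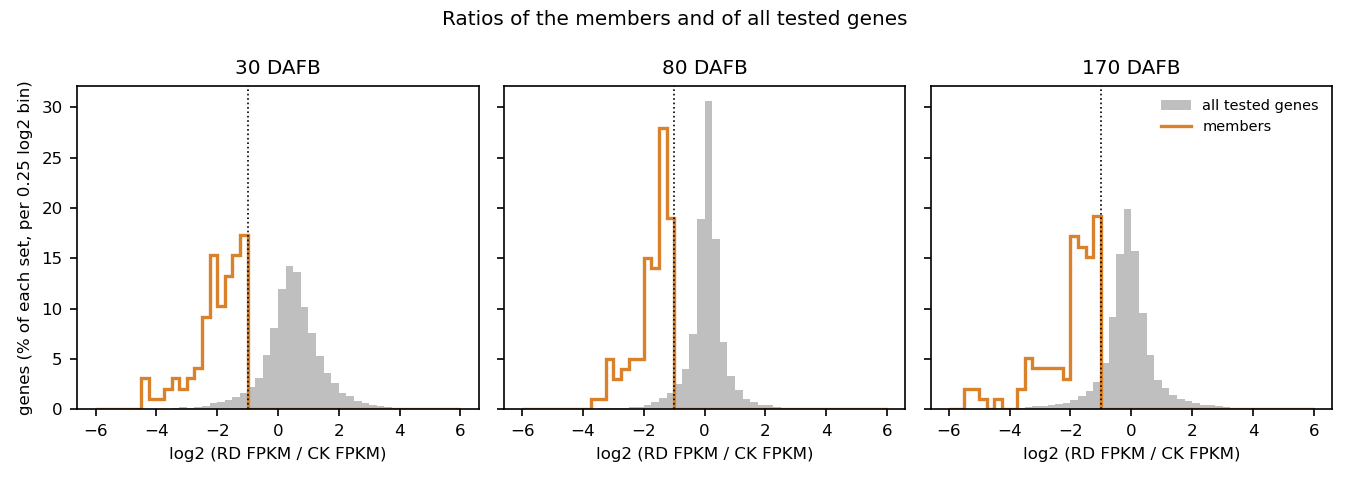
Distribution of log2 (RD FPKM / CK FPKM) at 30, 80 and 170 DAFB for the members (outline) and all genes with an FPKM of at least 1 in the higher library and above 0 in both (grey), in % of each set per bin of 0.25, with values beyond 6 in either direction placed in the outermost bins. The dotted line at -1 is the limit of the rule, and the grey distribution is centred at 0.48, 0.10 and -0.11.

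A 4-fold difference was reached by 45 members at 30 DAFB, 24 at 80 DAFB and 33 at 170 DAFB, and by 11 at every stage. An 8-fold difference at every stage was found for bHLH92 (Cs9g08460) and for Cs1g22570, an uncharacterized protein listed at 0 in RD170. The largest of a member's 3 differences fell at 30 DAFB for 42 members, at 80 DAFB for 20 and at 170 DAFB for 38. Across members, the log2 ratios had Pearson r = 0.27 between 30 and 80 DAFB (rho = 0.24, n = 98), 0.38 between 80 and 170 DAFB (rho = 0.33, n = 99) and 0.05 between 30 and 170 DAFB (rho = -0.00, n = 97). These are correlations across genes that share libraries and, for the middle stage, values. All the ratios were limited to -1 or below by the rule, which narrows their range, and nothing is read from these r. For 60 members the highest of the 3 RD libraries lay below the lowest of the 3 CK libraries, whatever the stage. Such non-overlap was found in 2.55% of the 15863 genes, and nothing is read from the excess because the rule favours it.

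**Figure D2:**
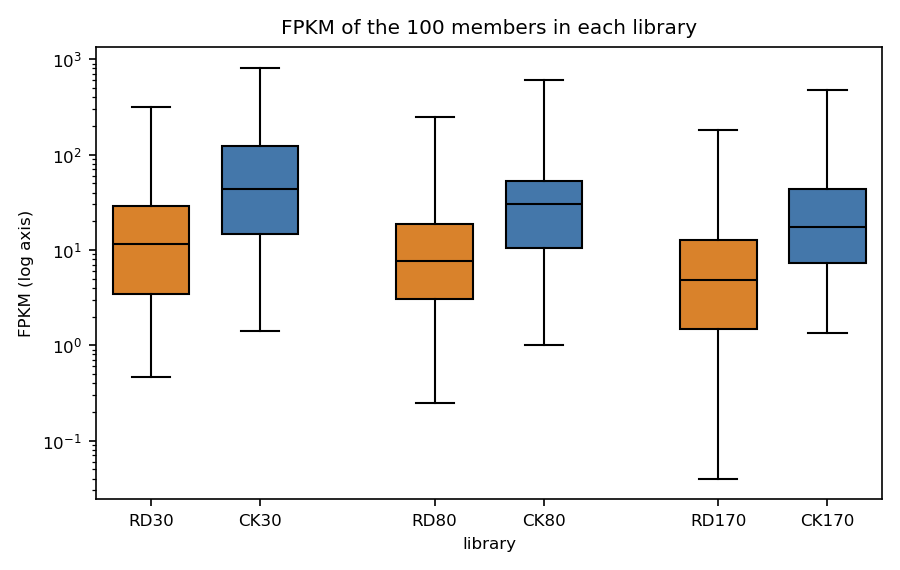
FPKM of the 100 members in each library on a log axis, RD (orange) beside CK (blue) at each stage. Boxes span the quartiles with the median as a line, and whiskers reach the lowest value above 0 and the highest value. The medians are 11.7, 7.57 and 4.8 in RD peel and 43.4, 30.5 and 17.3 in CK peel. The 3 values of 0 in RD libraries lie below the axis.

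Of the members, 5 have roles in or next to jasmonate synthesis and its control, and in 4 of them, beside 60 of all 100 members, RD and CK libraries did not overlap. Fatty acid desaturase 8 (Cs6g08600), a plastid enzyme that makes linolenic acid and is known from Arabidopsis for its response to cold, had an FPKM of 144 in RD30 and 614 in CK30, 149 in RD80 and 360.4 in CK80, and 103 in RD170 and 310.1 in CK170. All 3 RD values lay below all 3 CK values. Lipoxygenase 3-1 (Cs1g17380), a 13-lipoxygenase of the plastid, had 56.6 in RD30 and 579 in CK30, 57.2 in RD80 and 179 in CK80, and 26.5 in RD170 and 66.5 in CK170. The log2 ratio was -3.36, -1.65 and -1.33, deepest in young peel, where CK peel had its highest level. The lipase phospholipase A1-Ibeta2 (Cs5g08030) had 39.4 in RD30 and 222 in CK30, 13.9 in RD80 and 33.7 in CK80, and 3.73 in RD170 and 11.3 in CK170. As its level dropped with age in both peels, RD30 lay above CK80 and CK170, and the libraries overlapped.

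The repressors TIFY 10A (Cs1g17220) and TIFY 5A (Cs2g03240) were the members of the pathway's control. TIFY 10A had 73.2 in RD30 and 215 in CK30, 56.6 in RD80 and 210.2 in CK80, and 39.7 in RD170 and 119.99 in CK170, with log2 ratios between -1.89 and -1.56. TIFY 5A had 23.1 in RD30 and 98.9 in CK30, 9.04 in RD80 and 71.1 in CK80, and 13.5 in RD170 and 51.6 in CK170. In both, every RD library lay below every CK library. A second TIFY 10A gene next to the first by ID (Cs1g17210) was no member, because its log2 ratio was -0.37 at 30 DAFB, against -2.30 and -1.96 at 80 and 170 DAFB. Only genes with TIFY in their description were followed here. The study assigned families by sequence and, by its own limits, counted more TIFY genes as differing. In its counts all were lower in RD peel at 30 and 80 DAFB, and at 170 DAFB they went both ways. The jasmonate regulator MYC2 (Cs5g01450) had log2 ratios of 0.64, -0.27 and 0.50.

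The other enzymes of jasmonate synthesis did not share this course. Of the list of 30 synthesis genes, 6 of 27 expressed were lower and 3 higher in RD30, 2 of 23 were lower and 2 higher in RD80, and 5 of 22 were lower and 1 higher in RD170. The list's median log2 ratio was -0.19, 0.03 and -0.64. Lipoxygenase 3-1 and phospholipase A1-Ibeta2 were the 2 genes lower at 80 DAFB. Allene oxide synthase (Cs3g24230), which acts on the lipoxygenase product, had log2 ratios of -0.37, -0.54 and -0.93. Allene oxide cyclase 4 (Cs6g18900), the next enzyme, had -1.25, -0.14 and -0.33. In the list, 3 genes are subunits of an oligosaccharide transferase matched by the name DAD1 and have no part in jasmonate synthesis, and 1 of them (Cs2g17515) is among the 6 lower in RD30.

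**Figure D3:**
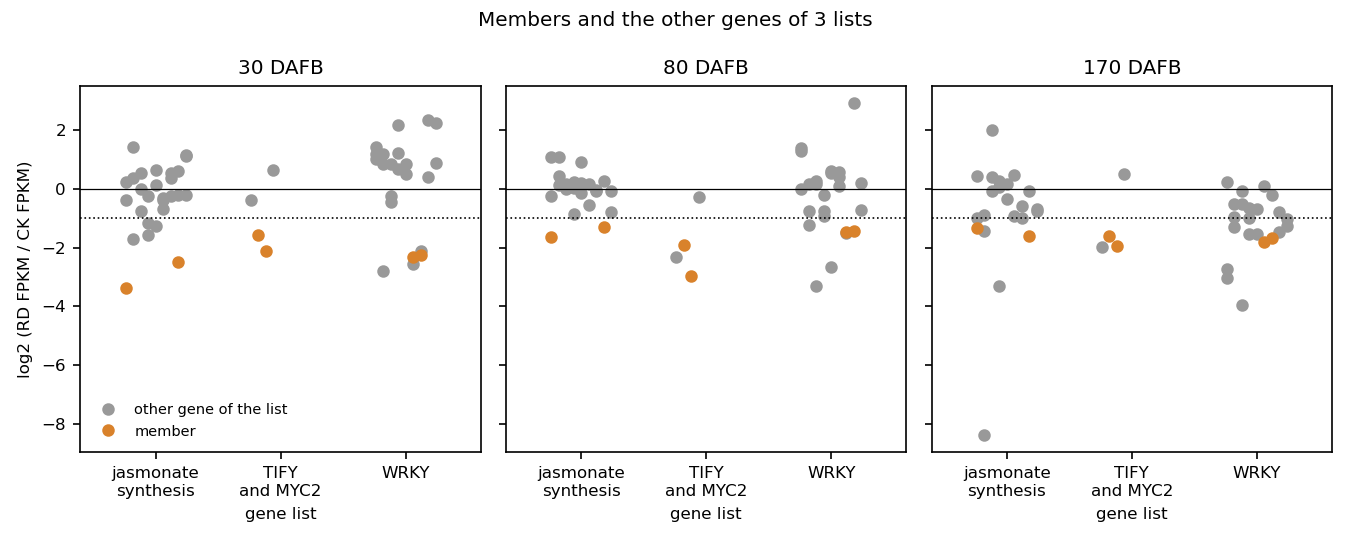
Log2 (RD FPKM / CK FPKM) at each stage of the expressed jasmonate synthesis list, the 3 genes described as TIFY with MYC2, and the WRKY list. Members are in orange and other genes in grey. Points are spread sideways for clarity, and the dotted line is the limit of -1. At 170 DAFB the WRKY list has a median of -1.01, while at 30 DAFB it has 0.84 and both WRKY members lie at -2.24 or below.

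As transcription factors, 5 members are described. The gene bHLH92, which responds to salt and osmotic stress in Arabidopsis, had 9.23 in RD30 and 161 in CK30, 4.07 in RD80 and 33.0 in CK80, and 0.48 in RD170 and 16.1 in CK170. With log2 ratios of -4.12, -3.02 and -5.07, it had the lowest mean ratio of the members detected in all 6 libraries and reaching an FPKM of 10 in any of them. DREB1B (Cs5g10240), named for the factors that switch on cold-response genes, had 19.1 in RD30 and 60.4 in CK30, 7.16 in RD80 and 43.2 in CK80, and 3.8 in RD170 and 13.7 in CK170. RD30 lay above CK170 in this gene, so the libraries overlapped. Of the genes described as DREB or dehydration-responsive, 3 of 5 were lower and 1 higher in RD30, 3 of 6 were lower and 2 higher in RD80, and 1 of 4 was lower and 0 higher in RD170. For a second DREB1B gene (orange1.1t01154) the log2 ratio was -1.14 at 30 DAFB, -2.16 at 80 DAFB and 0.38 at 170 DAFB.

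WRKY 53 is a regulator of defence and leaf ageing in Arabidopsis, and 2 neighbouring genes of that description were members. Cs5g02440 had 40.7 in RD30 and 204 in CK30, 47.7 in RD80 and 132 in CK80, and 15.3 in RD170 and 54.1 in CK170. Cs5g02450 had 39.7 in RD30 and 187 in CK30, 44.4 in RD80 and 119.8 in CK80, and 16.4 in RD170 and 51.9 in CK170. The near-equal levels of both copies may come from shared reads, so they are uncertain as separate genes. A WRKY 53 gene elsewhere (orange1.1t00472) was lower at 30 DAFB (log2 ratio -2.12) and had -0.72 and -0.79 later. Of the expressed WRKY genes, 5 of 22 were lower and 8 higher in RD30, 6 of 24 were lower and 3 higher in RD80, and 13 of 23 were lower and 0 higher in RD170. Of all genes at these stages, 6.34%, 4.86% and 10.1% were lower, and 25.6%, 5.20% and 8.14% were higher. Myb4 (Cs9g10480), which in Arabidopsis represses genes of phenylpropanoid synthesis, ran the other way with age, with 0.46 in RD30 and 1.97 in CK30, 0.86 in RD80 and 6.13 in CK80, and 2.44 in RD170 and 17.6 in CK170.

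Each of the hormones ethylene and gibberellin had 1 member by description. Ethylene response 2 (Cs9g08850), an ethylene receptor, had 26.7 in RD30 and 90.0 in CK30, 8.89 in RD80 and 19.4 in CK80, and 16.8 in RD170 and 106 in CK170. Its lowest level was at 80 DAFB in both peels. Ethylene response 1 (Cs5g14390) had log2 ratios of 0.28, 0.17 and -0.53, and ethylene response sensor 1 (Cs5g33560) 0.32, -0.02 and -1.37. The ethylene list, matched on descriptions, also holds ethylene-responsive factors. Of it, 3 of 52 were lower and 22 higher in RD30, and 6 of 47 lower and 3 higher in RD80. In RD170, 12 of 46 were lower and 4 higher. Gibberellin 2-beta-dioxygenase 2 (Cs9g01770), of a family that inactivates gibberellin, had 16.0 in RD30 and 36.9 in CK30, 10.5 in RD80 and 24.6 in CK80, and 10.1 in RD170 and 23.5 in CK170. Its log2 ratios of -1.20, -1.23 and -1.22 gave the smallest SD over stages, 0.01, of members with an FPKM of at least 5 in every CK library. The gibberellin list, matched on descriptions, also holds DELLA proteins, ent-kaurene enzymes of gibberellin synthesis and genes described as gibberellin-regulated proteins. Of that list Cs9g01770 was the 1 lower of 15 in RD30, 14 in RD80 and 15 in RD170, and 6, 3 and 4 were higher. The higher genes include gibberellin-regulated proteins: Cs6g17190 in RD30, Cs6g21260 in RD80, and Cs3g26100 and Cs6g17190 in RD170. Among the higher genes, gibberellin 2-beta-dioxygenase 8 (Cs2g07550) of the same inactivating family, had 27.6 in RD30 and 0.43 in CK30, 27.6 in RD80 and 14.3 in CK80, and 11.2 in RD170 and 3.14 in CK170.

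Cs4g12130, which the study calls DELLA8 and the deposited table describes as a hypothetical protein, was among the most abundant members. DELLA proteins repress growth and are destroyed when gibberellin is perceived. Its primers for quantitative PCR are shown because they define the transcript that was followed under that name. The study ran that PCR in biological replicates. For its selected genes it reports patterns similar to sequencing, with some differences in amount, and the PCR values were not re-analysed here. The primers have 24 and 19 bases with 45.8% and 52.6% G and C, and the gene lies on chromosome 4 by its ID.
Cs4g12130 forward: cttactcgtcttcttgtcctactg
Cs4g12130 reverse: tgctcctggctatcactca
The gene had 88.1 in RD30 and 404 in CK30, 59.8 in RD80 and 192 in CK80, and 35.2 in RD170 and 77.5 in CK170. The log2 ratio was -2.20, -1.68 and -1.14. RD30 lay above CK170, so the libraries overlapped. Genes that the deposited data describe as DELLA proteins ran the other way. DELLA GAI (Cs6g17530) had 51.3 in RD30 and 5.92 in CK30, with log2 ratios of 3.12, 1.43 and 0.52. DELLA GAIP-B (Cs2g16940) had log2 ratios of 1.25, 0.39 and 0.46. The study also lists a gene it calls DELLA7 as lower in RD30. Of the genes described as GRAS, the family that holds DELLA proteins, 1 of 14 was lower and 4 higher in RD30, 0 of 13 were lower and 1 higher in RD80, and 3 of 12 were lower and 0 higher in RD170. None was a member, and with members being 0.630% of expressed genes, nothing is read from a count of 0 in so short a list.

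**Figure D4:**
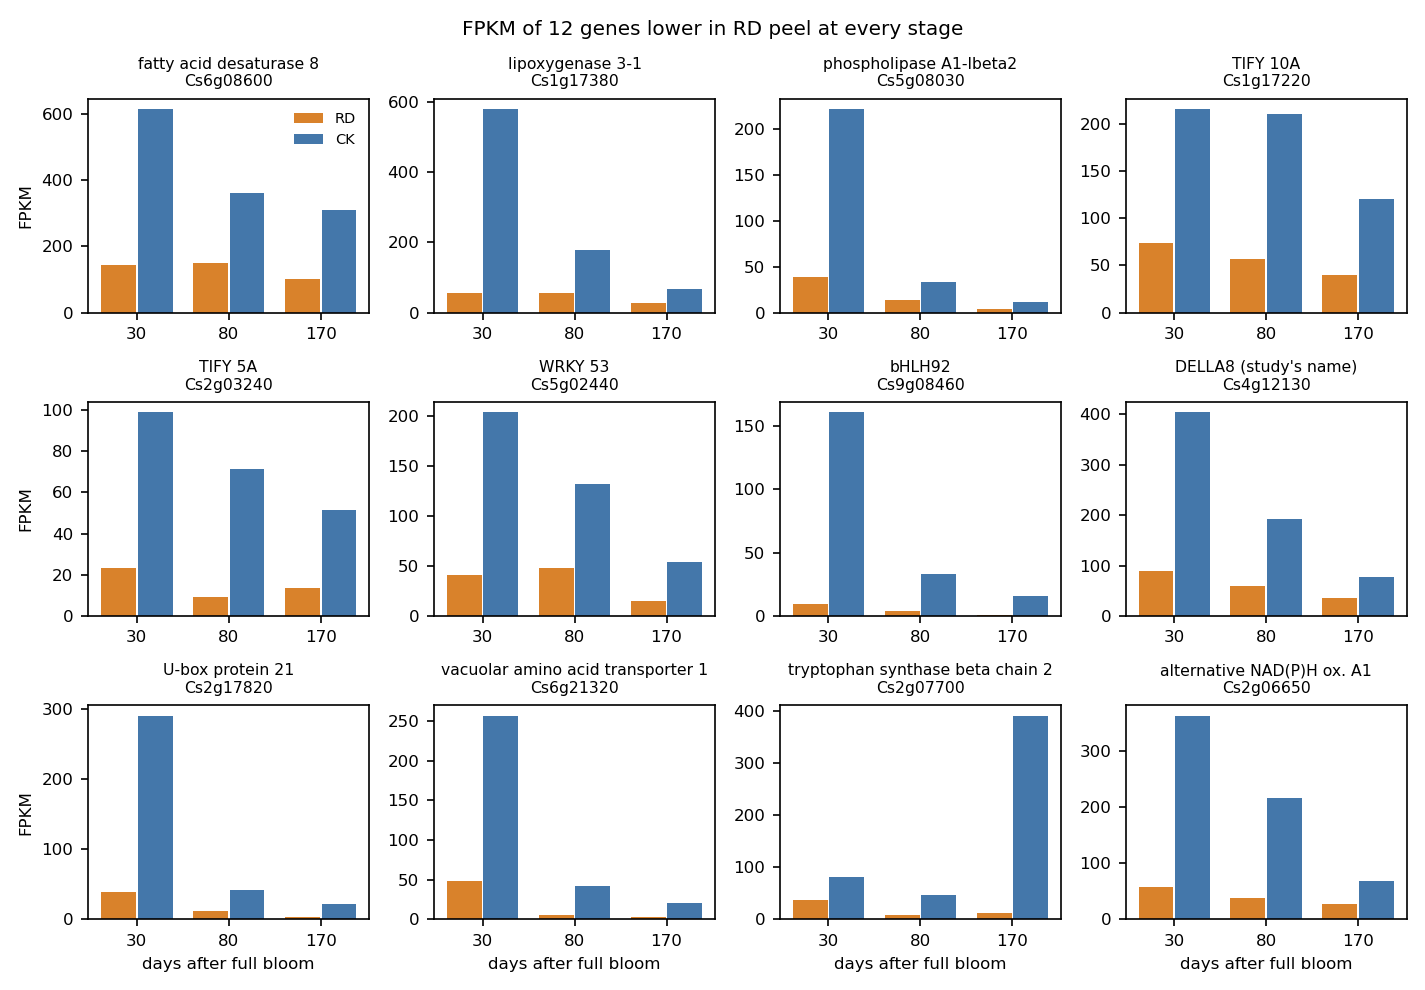
FPKM of 12 members in each library, RD (orange) left of CK (blue) at 30, 80 and 170 DAFB, on linear axes from 0 that differ between panels. Each bar is 1 pool. CK30 is the highest bar in every panel but tryptophan synthase beta chain 2, in which it is CK170, at 391.

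In all, 4 ubiquitin ligases of the U-box type, which mark proteins for breakdown, were members. U-box protein 21 is present as 2 neighbouring genes whose levels differed. Cs2g17820 had 38.1 in RD30 and 290.2 in CK30, 11.3 in RD80 and 41.8 in CK80, and 3.59 in RD170 and 21.4 in CK170. Cs2g17810 had 10.2 in RD30 and 24.6 in CK30, 13.9 in RD80 and 30.1 in CK80, and 2.47 in RD170 and 16.7 in CK170. U-box protein 44 (Cs7g02620) was highest at 80 DAFB, with 16.2 in RD80 and 48.9 in CK80. PUB23 (orange1.1t04594), which in Arabidopsis dampens immune responses, had 2.22 in RD30 and 10.3 in CK30, 0.85 in RD80 and 4.43 in CK80, and 0.36 in RD170 and 3.0 in CK170. Of the genes described as U-box domain proteins, a family counted after its members were seen and not holding PUB23, 9 of 31 were lower and 7 higher in RD30, 6 of 31 were lower and 2 higher in RD80, and 5 of 30 were lower and 1 higher in RD170. Beside them, 6.34%, 4.86% and 10.1% of all genes were lower and 25.6%, 5.20% and 8.14% higher.

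Kinases or channels made up 9 members. The MAP kinase kinase kinase YODA (Cs1g22540), known from Arabidopsis stomata and embryos, had 28.0 in RD30 and 61.5 in CK30, 9.2 in RD80 and 48.1 in CK80, and 4.65 in RD170 and 55.8 in CK170. Its CK level stayed within a narrow range while the RD level was lower at each later stage. Glutamate receptor 3.6 (Cs1g26650), a cation channel that carries wound signals in Arabidopsis, had 11.6 in RD30 and 32.4 in CK30, 7.98 in RD80 and 31.4 in CK80, and 9.96 in RD170 and 57.3 in CK170. A second gene of that name close by (Cs1g26670) had log2 ratios of 1.36, 0.36 and 0.43. Among glutamate receptor genes, 2 of 4 were lower and 1 higher in RD30, 2 of 5 were lower and 0 higher in RD80, and 1 of 4 was lower and 0 higher in RD170. A receptor-like kinase (Cs4g17400) had the lowest ratio at 170 DAFB of the members above 0 in both libraries, with 0.04 in RD170 and 1.76 in CK170 (log2 ratio -5.46), and 2.27 in RD30 and 10.9 in CK30. The lectin kinases B120 (Cs2g07100) and CES101 (Cs1g11960) had 10.2 and 0 in RD30 and 24.3 and 1.41 in CK30. CES101 was thus listed at 0 in RD30 and had at most 1.8 in CK peel. Of 773 genes described as kinases, expressed or not, 7 were members. The member share of 0.630% counts only genes expressed at every stage, so it is not set beside them. Of the expressed kinases, 62 of 455 were lower and 111 higher in RD30, 33 of 465 were lower and 28 higher in RD80, and 75 of 442 were lower and 38 higher in RD170. Beside these, 6.34%, 4.86% and 10.1% of all genes were lower and 25.6%, 5.20% and 8.14% higher. The cGMP-gated cation channel (Cs7g26650), which lies at the limit with 6.62 in RD170 and 13.3 in CK170, did not pass when libraries were scaled to a common median.

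Transporters among the members carry amino acids, peptides or nitrate, metals and potassium. Vacuolar amino acid transporter 1 (Cs6g21320) had 48.7 in RD30 and 257 in CK30, 4.7 in RD80 and 41.7 in CK80, and 2.66 in RD170 and 20.5 in CK170. In both peels it was highest at 30 DAFB by a wide margin, so RD30 lay above CK80. Cation/H+ antiporter 20 (Cs6g05990), a guard cell protein in Arabidopsis, had 1.27 in RD30 and 15.04 in CK30, 1.57 in RD80 and 4.33 in CK80, and 0.15 in RD170 and 3.32 in CK170. The adjacent peptide/nitrate transporter genes Cs5g04350 and Cs5g04340 had alike levels, with 40.5 and 33.0 in RD30 and 87.5 and 70.5 in CK30, and may share reads. Metal tolerance protein B (Cs8g19230) had log2 ratios of -1.30, -1.91 and -3.05.

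Metabolic enzymes made up 9 members. Tryptophan synthase beta chain 2 (Cs2g07700), which makes the last step to tryptophan, had 37.0 in RD30 and 80.2 in CK30, 7.0 in RD80 and 46.7 in CK80, and 11.2 in RD170 and 391 in CK170. Its log2 ratios of -1.12, -2.74 and -5.12 had the largest SD over stages, 2.01, of the members with an FPKM of at least 5 in every CK library. The ratio at 170 DAFB rests on a high value in 1 pool, CK170. In the list of aromatic amino acid genes, 2 of 37 were lower and 10 higher in RD30, 1 of 37 was lower and 3 higher in RD80, and 9 of 34 were lower and 2 higher in RD170. The list also caught, by the word shikimate, transferases and esterases of the lignin route. Of the 9 lower in RD170, 2 (Cs4g01920 and orange1.1t02793) are such genes. So are Cs1g14450, Cs4g02360, Cs4g02380, Cs4g02390, Cs6g18650 and Cs8g15850 among the 10 higher in RD30. The same holds for Cs4g02360 and Cs4g02390 among the 3 higher in RD80, and for Cs1g11780 among the 2 higher in RD170. Anthraniloyl-CoA:methanol acyltransferase (Cs2g31420), named for an enzyme of grape that makes a scent ester, had 13.4 in RD30 and 66.8 in CK30, 1.64 in RD80 and 7.74 in CK80, and 0.05 in RD170 and 1.44 in CK170. Alternative NAD(P)H oxidoreductase A1 (Cs2g06650), of the mitochondrial electron chain, had 57.6 in RD30 and 363 in CK30, 38.2 in RD80 and 216 in CK80, and 27.2 in RD170 and 67.5 in CK170. RIBA 1 (orange1.1t01969), of riboflavin synthesis, had 44.2 in RD30 and 159 in CK30, 45.5 in RD80 and 118 in CK80, and 23.6 in RD170 and 77.7 in CK170. Its RD and CK libraries did not overlap. A second RIBA 1 gene (Cs1g20020) had log2 ratios of 0.52, -0.03 and 0.33, and of 4 riboflavin genes the member was the 1 lower at each stage. UDP-glucose 6-dehydrogenase 1 (Cs5g11560), which makes a sugar precursor of cell walls, was weakly expressed, with 0.84 in RD30 and 2.52 in CK30, 0.25 in RD80 and 1.33 in CK80, and 1.84 in RD170 and 4.65 in CK170. Glucan endo-1,3-beta-glucosidase 14 (Cs8g14950) was the 1 member of the cell wall list and had log2 ratios between -1.56 and -1.14. Acetolactate synthase small subunit 1 (Cs2g12130), a regulator of branched-chain amino acid synthesis, had -1.19, -1.41 and -1.09 and did not pass after scaling to the median.

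Among stress and redox genes, both genes described as CYSTM1 family, small cysteine-rich membrane proteins, were members and neighbours. CYSTM1 family protein A (Cs6g11310) had 73.7 in RD30 and 327 in CK30, 46.2 in RD80 and 131 in CK80, and 183 in RD170 and 481 in CK170. It was 1 of 15 members with the highest CK level at maturity. Respiratory burst oxidase D (Cs8g12000), which makes superoxide, had 1.46 in RD30 and 4.52 in CK30, 2.45 in RD80 and 6.63 in CK80, and 0.84 in RD170 and 6.26 in CK170. The more abundant oxidase A (Cs5g02940) had log2 ratios of -4.02, -1.41 and -0.88 and so was no member. Of 3 expressed oxidases, 2 were lower in RD30, 2 in RD80 and 1 in RD170, and 0 were higher. Peroxidase 9 (Cs3g25300) had log2 ratios of -1.18, -1.69 and -1.87. The member NSL1 (Cs2g05610), which restrains cell death in Arabidopsis, had -1.73, -1.55 and -1.09, and did not pass after scaling to the median.

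**Figure D5:**
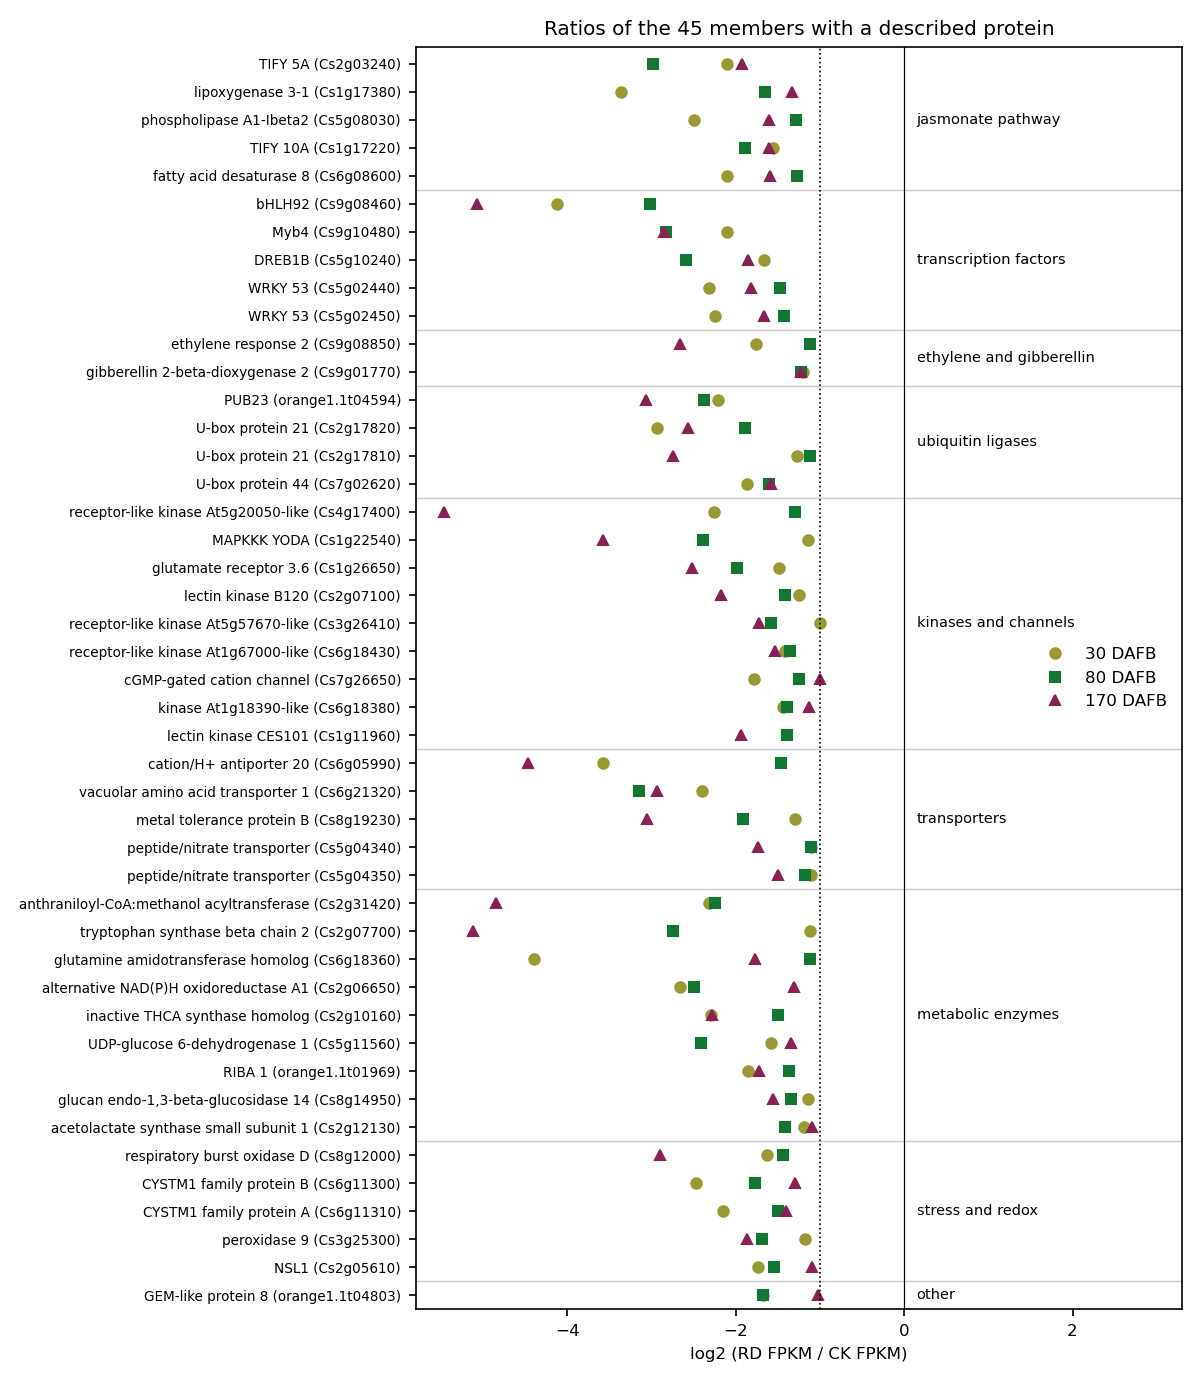
Log2 (RD FPKM / CK FPKM) of the 45 members with a described protein, grouped by role, at 30 DAFB (circles), 80 DAFB (squares) and 170 DAFB (triangles). The dotted line is the limit of -1. The value of lectin kinase CES101 at 30 DAFB is not shown because RD30 was listed at 0. Triangles lie farthest left for a receptor-like kinase at -5.46 and tryptophan synthase at -5.12.

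The other 55 members have no informative description, and 54 of them are listed as hypothetical or uncharacterized. That is 55% of the members, and of the genes expressed at every stage it was 54%. The most abundant of the members, Cs8g07560, was such a gene, with 315 in RD30 and 818 in CK30, 248 in RD80 and 606 in CK80, and 90.5 in RD170 and 197 in CK170. Cs3g14420 had 118 in RD30 and 419 in CK30, 42.2 in RD80 and 151 in CK80, and 41.8 in RD170 and 122 in CK170, with no overlap. Cs4g20420 ran against the common course, with 3.12 in RD30 and 14.2 in CK30, but 64.2 in RD170 and 283 in CK170. Deep differences at every stage were seen in Cs4g10240 (log2 ratios -2.24, -3.49 and -5.29), Cs7g31010 (-3.39, -3.52 and -2.42), Cs5g29860 (-2.93, -3.22 and -2.49) and Cs1g16650 (-2.23, -2.64 and -3.07). Cs6g07510 varied over the stages with an SD of 1.57, and had 3.27 in RD30 and 66.0 in CK30 (log2 ratio -4.34) and a log2 ratio of -1.33 at 170 DAFB. Cs2g21150 and Cs3g23250 varied little over the stages, with log2 ratios from -2.01 to -1.84 and from -1.21 to -1.02. Cs5g21910 was listed at 0 in RD30 against 1.48 in CK30. Cs2g30840 and Cs4g01230 had the same value in each of the 6 libraries to 2 decimals and may stand for the same reads, which leaves 99 members if they are counted once.

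The course of the members over development is given as a description, because the rule selected on the same 6 values. In CK peel, 67 members had their highest level at 30 DAFB, 18 at 80 DAFB and 15 at 170 DAFB, and in all genes these shares were 20.8%, 25.3% and 53.9%. Choosing genes lower in RD30 favours genes high in CK30, and how much of the member share comes from the choice was not tested. Of the 783 non-members lower at 30 DAFB, 84.4% had their highest CK level at 30 DAFB. Of the 509 non-members lower at 80 DAFB, 36.9% were highest in CK30 and 39.5% in CK80. Of the 1101 lower at 170 DAFB, 15.6% were highest in CK30 and 68.7% in CK170. In RD peel 55 members were highest at 30 DAFB, 28 at 80 DAFB and 17 at 170 DAFB, beside 35.4%, 27.0% and 37.6% of all genes. A decline at both steps was seen in 45 members in RD peel (25.2% of all genes) and 53 in CK peel (15.1%), and in 38 in both peels. By steps, 28 of 96 members were at least 2-fold lower and 7 higher in RD80 than in RD30 (9.44% and 7.15% of all genes), and 41 of 95 were lower and 12 higher in RD170 than in RD80 (17.7% and 8.77%). In CK peel, 38 of 100 were lower and 9 higher in CK80 than in CK30 (9.06% and 23.4%), and 34 were lower and 16 higher in CK170 than in CK80 (17.5% and 14.8%). Over the whole time, 50 of 97 members were lower and 7 higher in RD170 than in RD30 (21.5% and 11.3% of all genes), and 50 of 100 were lower and 7 higher in CK170 than in CK30 (18.2% and 32.8%). Across stages, 57 members were at least 2-fold lower in RD30 than in CK80 (8.60%) and 0 were higher (12.7%). Against CK170, 44 members were lower in RD30 (15.5%) and 8 higher (21.4%). The choice of genes low in RD30 and high in each CK library favours such differences, so nothing is read from these shares.

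Some genes lower at 2 stages missed the 2-fold limit at the other. At both 30 and 80 DAFB 295 genes were lower, of which 195 were no members: 99 of those were below CK170 in RD170 without reaching 2-fold and 15 were at least 2-fold higher in RD170. At both 30 and 170 DAFB 181 genes were lower, of which 81 were no members: 55 of those were below CK80 in RD80 without reaching 2-fold and 7 were at least 2-fold higher in RD80. At both 80 and 170 DAFB 263 genes were lower, of which 163 were no members: 38 of those were below CK30 in RD30 without reaching 2-fold and 53 were at least 2-fold higher in RD30. Around the limit, Cs7g17060 (weakest log2 ratio -1.01), Cs6g10520 (-1.03) and Cs7g28110 (-1.03) lay just inside, and the last did not pass after scaling to the median. Cs9g14150 (287 in RD170 and 574 in CK170), Cs2g25750 (-0.99) and the alkaline/neutral invertase Cs9g01760 (-0.99), which splits sucrose, lay just outside among genes with an FPKM of at least 10 in every CK library. This invertase is the next gene ID to the member gibberellin 2-beta-dioxygenase 2. In all, 21 further genes had a ratio of at most 0.55 at every stage. Among the named members, some ratios depended on the scaling. After scaling to the ACTIN gene the log2 ratio at 30 DAFB was -0.93 for YODA, -0.92 for tryptophan synthase beta chain 2, -0.90 and -0.91 for the peptide/nitrate transporters Cs5g04340 and Cs5g04350, -0.98 for peroxidase 9, -0.94 for glucan endo-1,3-beta-glucosidase 14, -0.99 for acetolactate synthase small subunit 1 and -0.82 for Cs3g23250. At 80 DAFB Cs7g17060 (-0.98) and Cs6g10520 also missed the limit under that scaling.

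The members were spread over all 9 chromosomes of the sweet orange gene set, with 5 on chromosome 9 and 14 on chromosome 2, and 6 on unplaced sequence. As shares of the genes in the table this was 0.306% on chromosome 3 to 0.709% on chromosome 6, and 0.152% of unplaced genes. In 4 places a member was followed directly by another: the U-box 21, WRKY 53, peptide/nitrate transporter and CYSTM1 pairs. Neither these pairs nor the next count was set beside other genes, so nothing is read from them. In all, 19 members had another within 10 gene steps by ID number. Besides the pairs they included a glutamine amidotransferase homolog (Cs6g18360) and the receptor-like kinases Cs6g18380 (log2 ratios -1.44, -1.39 and -1.13) and Cs6g18430 on chromosome 6, and YODA and Cs1g22570 on chromosome 1.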

How the data were processed

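Peel RNA of 6 pools, RD and CK at 30, 80 and 170 DAFB, was sequenced, and 1 deposited table was used. After cleaning, reads were aligned by the authors to sweet orange and FPKM per gene were calculated, with Bowtie, BWA and RSEM in the submitters' processing notes and versions not given in the sources used here. FPKM were used as deposited, and 0 columns were left out. Ratios had no pseudocount, and a gene was called at 2-fold with an FPKM of at least 1 in the higher library. Reads shared by near-identical genes could not be traced. The code of the rule was run on simulated data with planted differences and an assumed noise. That run checks the code only and says nothing about the members. Python 3.11.15, numpy 2.4.6, pandas 2.3.3, scipy 1.17.1 and matplotlib 3.10.9 were used.

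The members, the 38 lists matched on descriptions and the grouping by role were chosen with earlier results of these data known. Named genes were the members of lists (3 at most per list), the 10 with the lowest mean ratio (FPKM of at least 10 in 1 library), the 10 with the highest CK FPKM, those at 0, those at the limit, DELLA8, and the 3 with the smallest and largest SD over stages (FPKM of at least 5 in every CK library). Other members were named after their values were seen, to complete a role, as were the U-box, oxidase, CYSTM, DREB, RIBA and glutamate receptor families. Alternatives were other fold limits, FPKM minimums, pseudocounts and scalings. Promoter motifs were not analysed here.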

Additional observations from a re-analysis of the deposited data

How the results depend on the processing

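No paired analysis was possible because each condition is 1 library and the 3 stages are different conditions, not replicates, whose ratios the rule itself used, and leaving out a replicate could not be run for the same reason. The 100 members became 214 at a 1.5-fold limit, 19 at 3-fold, 11 at 4-fold, 178 with no FPKM minimum and 62 with a minimum of 10. A minimum of 0.5 gave 115 and of 5 gave 77, a pseudocount of 0.1 gave 93 and of 1 gave 78, and scaling to the ACTIN gene gave 89, of which 85 were among the 100. Scaled to the median of all genes there were 105 and to the upper quartile 101, with 90 shared in each case. In 2 alternatives chosen after seeing the data, identical genes counted once left 99 and non-overlap of all RD and CK libraries left 60. Genes lower at 30 DAFB (1104) numbered 1830 at 1.5-fold, 560 at 3-fold, 350 at 4-fold, 1980 with no minimum, 1873 scaled to the median and 1683 to the upper quartile. Genes lower at 80 DAFB (845) numbered 1690 at 1.5-fold, 330 at 3-fold, 187 at 4-fold, 2016 with no minimum, 511 and 396 with minimums of 5 and 10, and 551 with a pseudocount of 1. Genes lower at 170 DAFB (1726) numbered 3414 at 1.5-fold, 879 at 3-fold, 597 at 4-fold, 3195 with no minimum, and 1031 and 791 with minimums of 5 and 10. Each of these follows from a looser or stricter limit or from the shift of the scaling, which was -0.43, -0.09 and 0.11 on the log2 scale at 30, 80 and 170 DAFB for the median. Of all genes differing 2-fold in RD30 or CK30, 56.4% were higher in RD30 scaled to the median, 61.8% to the upper quartile and 86.8% to ACTIN. Of 138 stage values of 47 named members, none changed direction; 2 no longer passed 2-fold scaled to the median, 2 to the upper quartile, 10 to ACTIN, 0 with a pseudocount of 0.1 and 14 with a pseudocount of 1.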

Other observations

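Of the 38 lists, 17 held at least 1 member and 21 held none. As members were 0.630% of the expressed genes, a list of this size may hold none at that share, and nothing is read from a count of 0. Among expressed UDP-glycosyltransferases, which attach sugars to small molecules, 7 of 76 were lower and 23 higher in RD30, 0 of 77 were lower and 11 higher in RD80, and 21 of 77 were lower and 6 higher in RD170. Of the ABC transporters, 0 of 54 were lower and 14 higher in RD30, 3 of 58 were lower and 4 higher in RD80, and 14 of 55 were lower and 8 higher in RD170. Among genes of wax, cutin and lipases, which build the fruit surface, 2 of 42 were lower and 18 higher in RD30, 0 of 37 were lower and 7 higher in RD80, and 5 of 33 were lower and 7 higher in RD170. Over all genes, 6.34% were lower and 25.6% higher in RD30, 4.86% and 5.20% in RD80, and 10.1% and 8.14% in RD170. The ABC transporters higher in RD30 lay near that share, and nothing is read from them. Since 1 library stood for each condition, these counts describe the pools.

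The MYB, bHLH and defence lists had 1 member each. Among expressed bHLH genes, 6 of 32 were lower and 16 higher in RD30, and 3 of 28 lower and 6 higher in RD80. In RD170, 3 of 24 bHLH genes were lower and 4 higher. Of the expressed MYB genes, 3 of 29 were lower and 17 higher in RD30, 3 of 29 were lower and 11 higher in RD80, and 13 of 29 were lower and 2 higher in RD170. The defence list had 73 of 322 lower and 70 higher in RD30, 25 of 340 lower and 23 higher in RD80, and 28 of 343 lower and 27 higher in RD170. The shares over all genes were 6.34%, 4.86% and 10.1% lower and 25.6%, 5.20% and 8.14% higher.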
